A study of Mus musculus with 17 samples.

Results

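Stable highly open promoters were promoter regions whose chromatin was highly accessible to about the same degree in B cells before activation (naive), B cells of germinal centers, and plasma cells. Accessibility was measured by ATAC-seq, in which a transposase cuts and tags open DNA, and was expressed as RPPM, the reads in a region per 1000000 reads in all accessible regions of that library. Members were chosen by their measured values in the Dnmt3-sufficient libraries: a region had to be annotated to a promoter, lie outside chrX, chrY and chrM, have a mean of at least 20 RPPM in each of the 3 cell types, and have a largest mean no more than 1.5 times the smallest. Of 66177 accessible regions, 13880 were promoter regions outside chrX, chrY and chrM, and 4331 of these (31.2%) were members. A further 2913 promoter regions met the level limit but not the ratio limit and are called variable highly open promoters below, and 6636 fell under 20 RPPM in at least 1 cell type. Because the Dnmt3-sufficient (C) libraries chose the members, their values are given as a description, and evenness was examined in the Dnmt3-deficient (KO) libraries, which the choice did not use.

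The study compared B cells of mice with and without Dnmt3a and Dnmt3b, the enzymes that place new DNA methylation. KO mice were Dnmt3afl/flDnmt3bfl/fl with 1 copy of a Cre allele active in B cells, and C mice were littermates with the same floxed alleles and no Cre, all young adults of a B6;129S4 background with the alleles labelled Dnmt3atm3.1Enl and Dnmt3btm5.1Enl (the study's methods name another Dnmt3a allele). Naive B cells (nB, sorted as B220+ GL7- Fas-) came from lymph nodes of unimmunized mice, germinal center B cells (GCB, B220+ GL7+ Fas+ and bound to the antigen) from lymph nodes, and bone marrow plasma cells (BMPC, CD138+) from bone marrow, the last 2 taken 30 days after immunization with phycoerythrin. The libraries numbered 3 C and 2 KO for nB, 2 C and 4 KO for GCB, and 3 C and 2 KO for BMPC. Each GCB library pooled animals, all nB libraries were from males and all BMPC libraries from females, so cell type, tissue and sex cannot be told apart between nB and BMPC. The Cre acts from early B cell development and removes the part of each gene that encodes the catalytic domain, so in KO mice the deletion precedes the naive stage and is shared by all 3 cell types.

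Promoters of genes that every cell uses are usually kept free of nucleosomes around the transcription start site. Many of them lie in CpG islands, stretches rich in CG dinucleotides that are as a rule unmethylated, and carry binding sites for broadly expressed factors such as Sp1, NF-Y, GABP and NRF1. De novo methylation by Dnmt3a and Dnmt3b acts mainly elsewhere, at distal elements and gene bodies that change during differentiation.

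The sequences of 5 members are shown because they come from the members with the highest levels and the most even member, and because they differ widely in base composition. Each is the 250 bases before the annotated start, in mm9, + strand, 5′ to 3′. Capitals mark the motifs searched for in these stretches, which were fewer than the motifs counted over all members further below. The shorter ETS core and the IRF-like letters were among those left out, and matches to them stay in lower case. Ube2d3 (a ubiquitin-conjugating enzyme), Atp2b1 (a plasma membrane calcium pump), Cic (a transcriptional repressor) and Ppm1b (a protein phosphatase) came next by KO mean after Dhrsx and Dcaf6, whose sequences are not printed, and Acp6 (a lysophosphatidic acid phosphatase) had the smallest ratio between KO cell-type means.
Ube2d3: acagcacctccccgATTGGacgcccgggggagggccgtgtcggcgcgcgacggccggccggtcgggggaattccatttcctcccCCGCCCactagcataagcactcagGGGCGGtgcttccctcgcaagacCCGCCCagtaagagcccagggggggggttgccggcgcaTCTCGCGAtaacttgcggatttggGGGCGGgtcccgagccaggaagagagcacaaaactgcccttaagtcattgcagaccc
Atp2b1: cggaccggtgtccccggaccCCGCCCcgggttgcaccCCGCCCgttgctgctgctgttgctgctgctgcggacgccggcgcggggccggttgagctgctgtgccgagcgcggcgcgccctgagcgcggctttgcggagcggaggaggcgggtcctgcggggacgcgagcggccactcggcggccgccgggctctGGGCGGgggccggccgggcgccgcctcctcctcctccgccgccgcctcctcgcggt
Cic: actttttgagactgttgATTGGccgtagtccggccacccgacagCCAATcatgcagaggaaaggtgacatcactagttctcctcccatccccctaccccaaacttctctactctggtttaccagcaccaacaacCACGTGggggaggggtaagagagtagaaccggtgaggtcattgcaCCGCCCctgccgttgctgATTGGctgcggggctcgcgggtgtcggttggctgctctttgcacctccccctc
Acp6: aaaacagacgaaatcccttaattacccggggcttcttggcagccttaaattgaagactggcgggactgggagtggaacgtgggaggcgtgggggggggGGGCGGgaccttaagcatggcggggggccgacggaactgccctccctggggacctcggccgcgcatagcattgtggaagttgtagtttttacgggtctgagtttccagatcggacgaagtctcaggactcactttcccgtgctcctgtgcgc
Ppm1b: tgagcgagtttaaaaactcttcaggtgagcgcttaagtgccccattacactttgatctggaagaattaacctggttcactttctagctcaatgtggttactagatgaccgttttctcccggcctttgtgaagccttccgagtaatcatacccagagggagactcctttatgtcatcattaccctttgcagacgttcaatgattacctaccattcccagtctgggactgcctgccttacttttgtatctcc
They lie at chr3:135101011-135101260 (Ube2d3), chr10:98377536-98377785 (Atp2b1), chr7:26052468-26052717 (Cic), chr3:96962450-96962699 (Acp6) and chr17:85355831-85356080 (Ppm1b).

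The Atp2b1 stretch was 80.8% G and C with 41 CpG dinucleotides, against 45.2% and 6 for Ppm1b. None of the motifs searched for in these stretches was found in that of Ppm1b, and the motif counts that follow cover that shorter search only. Most of the Ppm1b stretch lay upstream of its accessible region, which began at chr17:85356004. Ube2d3 held 4 GC boxes (GGGCGG or its complement CCGCCC), 1 CCAAT box on the reverse strand (ATTGG) and 1 CGCG element (TCTCGCGA). Cic held 3 CCAAT boxes, 1 GC box and 1 E-box (CACGTG), Atp2b1 held 3 GC boxes and Acp6 held 1. Per kb of region, Ppm1b, Ube2d3 and Atp2b1 had 100.2, 102 and 99.9 RPPM (KO mean), Cic had 121 and Acp6 had 30.6, and all but Acp6 had been chosen for a high KO mean.

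Over the members, sequence was examined in windows of 250 bases before to 50 after the annotated start, which could be read for 4228 of them. Their median G and C content was 62.7%, and 82.3% were island-like, that is at least 50% G and C with an observed to expected CpG ratio of at least 0.6. Variable highly open promoters were island-like nearly as often (81.5%), and promoters under the level limit less often (54.0%), beside 72.0% of all promoter windows. A second protein-coding start in the opposite direction within 1000 bp was present for 12.3% of members, 10.7% of variable highly open promoters and 3.32% of those under the level limit. These shares describe the windows and carry no test.

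Motifs were counted on both strands in the same windows. The CCAAT box, bound by NF-Y, was in 44.1% of member windows, 34.3% of variable highly open windows, 30.5% of windows under the level limit and 36.7% of all promoter windows. The GC box, bound by Sp and Klf factors, was in 73.5% of member windows and 73.6% of variable highly open windows, against 68.2% of all. CCGGAAGT, the CpG-containing ETS site of GABP, was in 10.7%, 8.73% and 8.21% of member, variable and all windows, and every window with it also counts for the shorter ETS core GGAAGT, which is also the core bound by the B cell factor PU.1 (31.0%, 27.4% and 28.0%). The CCAAT box was thus the motif that set members most apart from the variable promoters in percentage points.

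The remaining motifs differed less. The NRF1 site GCATGCGC was in 6.08% of member and 4.94% of all windows, the CRE TGACGTCA in 4.30% and 3.25%, the YY1 site AAGATGGC in 5.75% and 4.52%, the E2F site GGCGGGAA in 5.20% and 4.17%, and the E-box CACGTG in 11.6% and 10.2%. TCTCGCGA was in 2.70% of member and 2.71% of variable windows but in 0.511% of windows under the level limit. Its share thus differed by the level limit and not by the ratio limit in C. Among members, 89.5% of the 114 with it and 83.9% of those without it met the ratio limit in KO. The E-box, octamer, IRF-like and TATA letters were not more frequent in members: CAGCTG was in 14.1% of member and 15.4% of all windows, the octamer ATGCAAAT in 1.37% and 1.48%, GAAAC in 39.3% and 40.5%, and TATAAA in 5.09% and 6.28%. A match to these letters is not evidence of binding.

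The libraries differed in depth and in mitochondrial DNA. Reads in accessible regions ranged from 4104875 to 6079018 in nB, 907959 to 2280954 in GCB and 5357687 to 8232313 in BMPC, and the GCB libraries also had the larger share of reads in chrM regions (7.43 to 10.1%, against 2.56 to 4.59% elsewhere). Members took 23.4 to 28.2% of the reads of a library. Of the B lineage markers, 4 of 6 had an accessible region that held the annotated start. Their summed level was 158 to 173 RPPM in nB, 118 to 146 in GCB and 39.0 to 43.7 in BMPC. None of the 6 T cell and 3 erythroid markers had such a region, and 1 of 6 myeloid markers, Itgam, had 1 of 0.56 to 5.31 RPPM per library. The B lineage markers Pax5 and Ebf1 and the plasma cell marker Sdc1 had none either. The lack of such a region therefore does not show that a promoter was closed. In bulk samples fewer open cells and less signal per open cell cannot be told apart.

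At the median, members had a small spread among libraries of a group. Their median coefficient of variation among libraries of a group was 6.23% in C nB and 4.83% in KO nB, 8.94% in GCB of C mice and 11.8% in those of KO mice, and 4.77% in BMPC of C mice and 4.26% in those of KO mice. Counting error alone gave 5.96%, 5.56%, 9.26%, 12.1%, 5.11% and 5.15% in the same order. In all groups but C nB the observed median lay below counting error. With 2 to 4 libraries per group the median of such coefficients runs below the true spread. It therefore cannot show how much spread beyond counting there was. The wider spread in KO GCB went with its depth, a median of 75 reads per member and library, against 328 in KO nB and 395 in KO BMPC.

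KO means over the 3 cell types ran from 18.8 to 224 RPPM with a median of 55.7, and 80% of the members lay between 30.7 and 97.9. The 10% of members with the highest level held 19.4% of all member signal. Members were a median of 1163 bp wide (314 to 2735), and per kb, the scale on which regions can be compared with each other, the level had a 10th percentile of 30.5, a median of 48.2 and a 90th percentile of 72.3 RPPM. The annotated start lay inside the region for 4235 members (97.8%). Members carried 4155 gene symbols, 95 had none, 80 genes had more than 1 member, and 7 members lay on sequence not placed on a chromosome.

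The members with the highest KO mean belonged to genes for proteins of several kinds. Dhrsx, a dehydrogenase of the short-chain family, had 193, 214 and 213 RPPM in C nB and 210.1 and 190.3 in KO nB, 266 and 294 in C GCB and 237, 279, 279 and 275 in KO GCB, then 206, 203 and 220.5 in C BMPC and 201 and 208 in KO BMPC. Its GCB values were all above its nB and BMPC values. It lay on unplaced sequence of chr4, at 123 RPPM per kb.

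Dcaf6 (chr1:167389559-167391963), a substrate adaptor of a ubiquitin ligase, behaved alike. It had 172, 201 and 184 RPPM in C nB and 180.5 and 188 in KO nB, 252 and 282 in C GCB and 262, 276, 278 and 244 in KO GCB, then 191, 177 and 188 in C BMPC and 169 and 185 in KO BMPC. Ppm1b (chr17:85356004-85358029) gave 175, 199 and 179 RPPM in C nB and 192 and 203 in KO nB, 228 and 280.1 in C GCB and 220.3, 225, 261 and 247 in KO GCB, then 173, 172 and 177 in C BMPC and 165 and 181 in KO BMPC. In these 3 members GCB was the highest cell type, the reverse of most members.

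Ube2d3 (chr3:135100740-135102637) was among the most even of the high members. Its values were 202, 223 and 206 RPPM in C nB and 205 and 221 in KO nB, 191 and 233 in C GCB and 181, 194, 213 and 191 in KO GCB, then 176, 181 and 194 in C BMPC and 174 and 178 in KO BMPC. Atp2b1 (chr10:98376501-98378330) had 184, 204 and 184 in C nB and 189 and 219 in KO nB, 188 and 226 in C GCB and 187, 215, 209 and 169.9 in KO GCB, then 157, 147 and 157 in C BMPC and 145 and 154 in KO BMPC. For Atp2b1 the BMPC values lay below all nB and GCB values, and for Ube2d3 the GCB values overlapped those of nB and BMPC while BMPC lay below nB.

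Cic (chr7:26052201-26053690) was the only one of the 6 whose GCB values all lay below its nB values. It had 194, 239 and 216 RPPM in C nB and 211 and 226 in KO nB, 178 and 169 in C GCB and 144, 141, 149 and 122 in KO GCB, then 181, 185 and 197 in C BMPC and 175 and 192 in KO BMPC. Its KO ratio of largest to smallest cell-type mean, 1.57, lay past the limit that the C means had met.

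In C, where the rule fixed the evenness, the median member had 58.2 RPPM in nB, 53.3 in GCB and 59.9 in BMPC, and GCB was the lowest cell type for 57.5% of members. In KO the medians were 58.7, 50.6 and 58.2, and GCB was the lowest cell type for 63.0% as deposited, 71.0% with TMM scaling, 52.3% with chrM regions left out of the total and 32.0% after quantile normalization. The KO libraries kept most of the pattern: 3603 of 4331 members (83.2%) met both limits in KO, 4237 (97.8%) the level limit alone and 3630 (83.8%) the ratio limit alone. A KO ratio of at most 2 was found for 4318 (99.7%), and the largest was 2.85. Only 479 of 2913 variable highly open promoters (16.4%) met both limits in KO.

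The median KO ratio was 1.3 for members, beside 1.76 for variable highly open promoters. The share of members within the ratio limit was 76.5% with TMM scaling, 88.4% without chrM regions and 88.6% after quantile normalization. Of the 701 members past the limit in KO, 578 (82.5%) were lowest in GCB as deposited and 91.1% with TMM scaling, but 62.7% without chrM regions and 18.2% after quantile normalization. Higher members were more even: from the quintile with the lowest KO mean (18.8 to 37.5 RPPM) to the quintile with the highest (81.5 to 224 RPPM), the share within the ratio limit was 74.7%, 81.2%, 83.4%, 87.5% and 92.3%. Counting error was larger at low levels and its part in this order was not tested. From the lowest to the highest quintile, the median width rose from 938 to 1487 bp, G and C content from 58.7% to 66.0%, the share of windows with a CCAAT box from 38.1% to 47.5%, and the share with a second start from 6.0% to 16.6%.

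**Figure D1:**
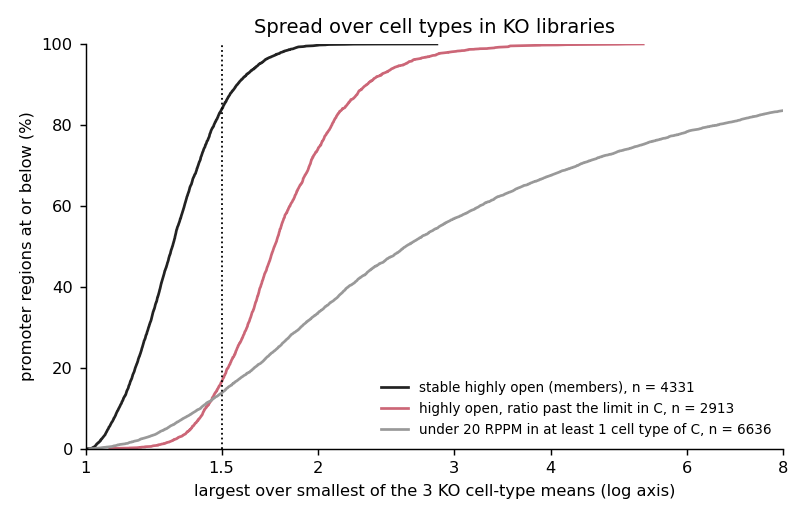
Cumulative share of promoter regions (%, vertical axis) by the largest over smallest KO cell-type mean (horizontal log axis), for members, variable highly open promoters and promoters under 20 RPPM in at least 1 cell type of C. At the dotted limit of 1.5 the member curve stands at 83.8% and the variable curve at 16.5%.

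The most even members in KO had ratios just above 1. Acp6 (chr3:96962005-96963551), with a ratio of 1.005, had 51.5 and 43.5 RPPM in KO nB, 43.0, 49.0, 52.6 and 44.7 in KO GCB, and 48.2 and 46.3 in KO BMPC, and in C 55.3, 46.0 and 44.9 in nB, 45.7 and 51.5 in GCB, and 49.6, 37.95 and 41.4 in BMPC. Stag1 (chr9:100542891-100544221), a subunit of the cohesin complex, had 123 and 117 RPPM in KO nB, 113, 118, 136 and 109.8 in KO GCB, and 115 and 122 in KO BMPC, with 114, 122 and 119 in C nB, 136 and 149.9 in C GCB and 111, 122 and 119 in C BMPC. In both genes the KO values of the 3 cell types overlapped, while the C GCB values of Stag1 stood above its other C values.

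The other 4 most even members were Dnajc27 (a J-domain protein, 54.9 RPPM KO mean over cell types), Gm561 (22.1), Cenpf (a kinetochore protein, 44.6) and Stx6 (a SNARE protein of the Golgi, 53.7), with KO ratios between 1.01 and 1.02. Cenpf had 40.6 and 47.8 RPPM in KO nB, 43.0, 40.1, 52.2 and 42.6 in KO GCB and 39.4 and 50.6 in KO BMPC. At Cenpf the spread within KO BMPC and KO GCB was wider than the differences between the cell-type means.

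**Figure D2:**
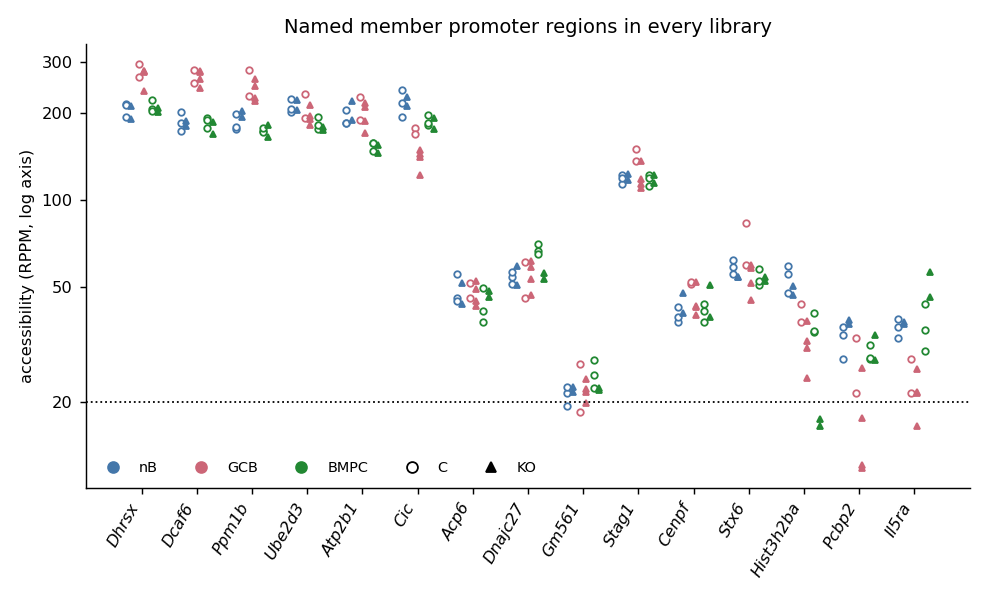
Accessibility (RPPM, log axis) of 15 named members in every library, coloured by cell type, with open circles for C and triangles for KO and the 20 RPPM limit dotted. The 6 members at the left have the highest KO means, the next 6 the smallest KO ratios, and for Hist3h2ba both KO BMPC libraries (16.5 and 17.5) lie below all other libraries.

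By function, members were spread over the housekeeping machinery. The lists that follow were compiled with earlier results of these data known and are given as counts of promoter regions, beside 31.2% members among the 13576 promoter regions with a gene symbol. Aminoacyl-tRNA synthetases, which charge tRNAs, had the largest share, 19 of 30 (63.3%), followed by mitochondrial import and dynamics with 13 of 22 (59.1%), nuclear pore and transport with 27 of 47 (57.4%) and oxidative phosphorylation with 35 of 68 (51.5%). DNA replication and repair had 31 of 66 (47.0%), ubiquitin conjugation 18 of 39 (46.2%), mitochondrial ribosomal proteins 27 of 60 (45%), chaperones 32 of 75 (42.7%) and RNA polymerase II with its general factors and Mediator 28 of 66 (42.4%).

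Other constitutive machines were near the share of all genes. Cytosolic ribosomal proteins had 24 of 67 (35.8%), proteasome subunits 14 of 42 (33.3%), the spliceosome 24 of 73 (32.9%) and chromatin modifiers 27 of 85 (31.8%), while zinc finger proteins had 126 of 349 (36.1%). MAP kinases and B cell receptor signaling had 17 of 75 (22.7%). Developmental transcription factors had 2 of 59 (3.39%), Foxd2 and Sox12, and olfactory receptors had 0 of 11. For ribosomal proteins, the proteasome and the spliceosome, much of the remainder was highly open but past the ratio limit, as the plot of lists by class shows. These shares mix level with evenness. Among highly open promoters alone, 59.8% of those with a gene symbol were members. Lists below this share included RNA polymerase II (57.1%), ubiquitin conjugation (54.5%), cytosolic ribosomal proteins (47.1%), the proteasome (43.8%) and the spliceosome (38.7%). Lists above it included aminoacyl-tRNA synthetases (70.4%), mitochondrial import and dynamics (76.5%), nuclear pore and transport (75%) and oxidative phosphorylation (68.6%).

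**Figure D3:**
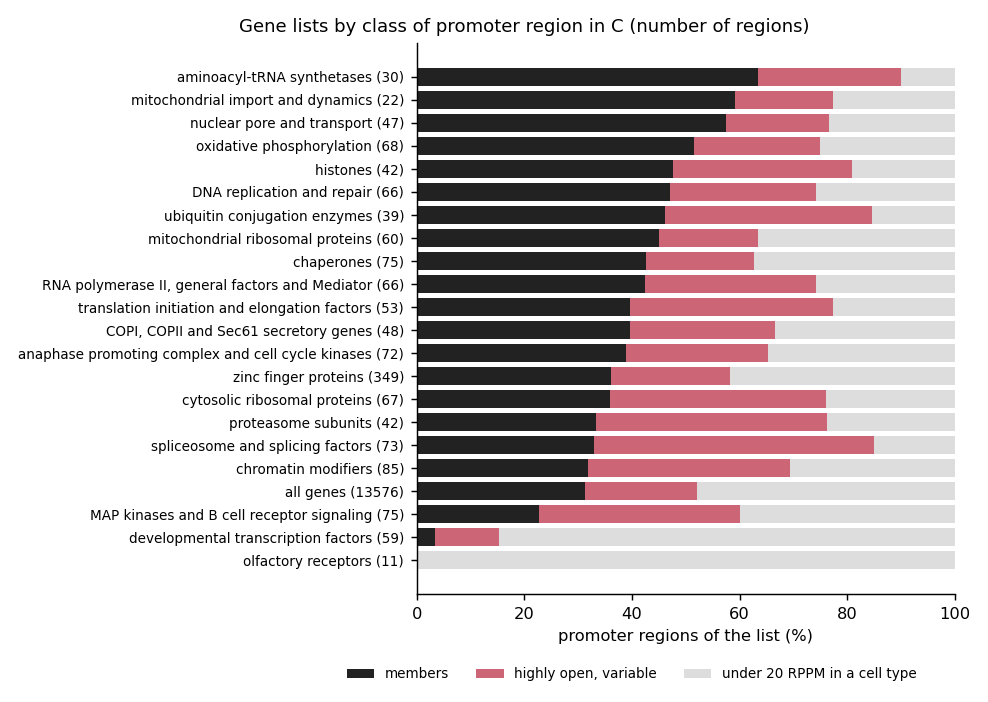
Share of promoter regions (%) of each list, with its number of regions in parentheses, that were members, highly open but past the ratio limit in C, or under 20 RPPM in at least 1 cell type of C. Aminoacyl-tRNA synthetases are at the top with 63.3% members and olfactory receptors at the bottom with 0.

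Some members of these lists were more even in KO than the median member, whose ratio was 1.3. Ipo5, an importin, had KO means of 102 RPPM in nB, 104 in GCB and 106 in BMPC, and Sec23a, a subunit of the COPII coat, had 88.9, 93.0 and 92.4. Rad23b, a DNA repair factor, had 107, 104 and 112, and Psma5, a proteasome subunit, had 64.8, 68.8 and 72.9. These 4 had KO ratios of 1.04, 1.05, 1.07 and 1.13, and do not stand for whole lists. The median KO ratio of members was 1.28 for nuclear pore and transport and 1.22 for COPI, COPII and Sec61 secretory genes. It was 1.27 for DNA replication and repair and 1.37 for proteasome subunits, where 9 of 14 members met the ratio limit. At the other end Rpl7, a protein of the large ribosomal subunit, had 107, 69.7 and 111 and a ratio of 1.59, a GCB minus nB difference of -0.62 on the log2 scale (SE 0.10, limma adjusted p = 1.26e-05).

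Few members differed between KO and C in any cell type. For each cell type all 66177 regions entered a limma fit of log2(RPPM + 1) with Benjamini-Hochberg adjustment. A region was called where the adjusted p was 0.01 or less and the change at least 2-fold, and a looser count used an adjusted p of 0.05 or less with no limit on fold. No region was dropped for low values, so all 4331 members were tested. The C libraries in these comparisons are those that chose the members.

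In nB no member was called, against 0% of all regions, and the looser count was also 0 in either direction, against 0% higher and 0% lower. At an unadjusted p under 0.05 there were 24 members by limma, 66 by the quasi-likelihood test of edgeR, 78 by its likelihood ratio test and 41 by DESeq2, and each of these tools also called 0 after adjustment. The 95% interval of the KO minus C difference lay within 1.5-fold either way for 98.5% of members, 98.0% of variable highly open promoters and 24.4% of all regions, whose lower counts give wider intervals. The median difference over members was 0.01 (log2).

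In GCB no member was called, against 0.0317% of all regions (limma; 615 members at an unadjusted p under 0.05, and 0 called by edgeR or DESeq2). The looser count was 3 members lower and 0 higher, against 0.0257% lower and 0.19% higher over all regions, and neither edgeR test nor DESeq2 called any of the 3. The median member difference was -0.08 (log2), beside 0.03 for all regions, but -0.15 beside 0.08 without C GCB replicate 1 and -0.02 beside -0.03 without C GCB replicate 2, and the interval lay within 1.5-fold for 91.3% of members.

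The 3 members that passed the looser test in GCB were Wdr18, Smchd1 and Tbc1d10b. Wdr18 (chr10:79422330-79423155), a factor in ribosome assembly, had 45.7 and 52.5 RPPM in C GCB and 33.0, 30.6, 34.6 and 32.9 in KO GCB (difference -0.57, SE 0.11, limma adjusted p = 0.0334). Smchd1 (chr17:71824216-71825384), a chromatin protein of the inactive X chromosome, had 61.1 and 64.6 in C GCB and 36.3, 37.6, 49.1 and 47.5 in KO GCB (difference -0.56, SE 0.12, adjusted p = 0.0422). Tbc1d10b (chr7:134351697-134353208), a regulator of Rab GTPases, had 147 and 159.7 in C GCB and 110.1, 111, 134 and 115 in KO GCB (difference -0.38, SE 0.08, adjusted p = 0.0493). In all 3 the C and KO libraries of GCB did not overlap. Those of BMPC overlapped in all 3, and those of nB overlapped for Wdr18 and Tbc1d10b. For Smchd1 the KO nB values (74.8 and 82.9 RPPM) lay above those of C nB (70.6, 71.4 and 66.8). Each call was lost without C GCB replicate 2, that of Smchd1 also without C GCB replicate 1 or KO GCB replicate 1 or 2, and that of Tbc1d10b also without KO GCB replicate 1, 2 or 4.

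In BMPC 1 member was called, against 0.104% of all regions (limma; 69 members at an unadjusted p under 0.05). It was Hist3h2ba (chr11:58761816-58762794), a gene for histone H2B, with 34.9, 40.7 and 35.3 RPPM in C BMPC and 16.5 and 17.5 in KO BMPC, a difference of -1.07 (log2; SE 0.16, limma adjusted p = 0.00194). It was also called by both edgeR tests and by DESeq2, but not by limma without C BMPC replicate 2 (-1.002), without KO BMPC replicate 1 (-1.03) or without KO BMPC replicate 2 (-1.11). In nB it had 55.5, 47.5 and 59.0 in C and 46.9 and 50.2 in KO, and in GCB 43.5 and 37.9 in C and 24.2, 38.2, 32.4 and 30.8 in KO, so that C and KO overlapped there. The adjacent Hist3h2bb-ps had a difference of -0.23 in BMPC (adjusted p = 0.509).

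The looser count in BMPC was 2 lower and 0 higher, against 0.138% lower and 0.635% higher over all regions. The second was 1 of 2 members at Ccdc64 (chr5:116182029-116183001), named here after its values were seen, with 42.4, 43.2 and 43.9 RPPM in C BMPC and 31.0 and 22.0 in KO BMPC (difference -0.70, adjusted p = 0.0228). The other member at this gene (chr5:116102553-116103477) had 60.5, 63.1 and 58.1 in C BMPC and 60.7 and 62.7 in KO BMPC, which overlapped. With the same looser limit the quasi-likelihood test called 51 members (2 higher and 49 lower), beside 4081 of 66177 regions (2550 higher and 1531 lower). The likelihood ratio test called 89 members (2 higher and 87 lower), beside 5497 regions (3340 higher and 2157 lower). DESeq2 called 18 members (0 higher and 18 lower), beside 1548 regions (1107 higher and 441 lower).

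Whether the KO minus C difference itself differed between cell types was tested as an interaction. For BMPC against nB and for BMPC against GCB limma called 0 members, against 0% and 0% of all regions, with 38 and 197 members at an unadjusted p under 0.05. In the first, both edgeR tests and DESeq2 called 1 member, Hist3h2ba, for which limma gave -0.92 (SE 0.22, adjusted p = 0.279), and in the second they called 0. A limma fit of the compared groups only gave the same difference an adjusted p of 0.0116, under the looser limit, so whether Hist3h2ba differed between BMPC and nB depended on the fit.

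Between cell types of KO mice, a smaller share of members than of all regions passed the limits. Going from nB to GCB, 8 members were called, all lower in GCB, against 26.3% of all regions. From nB to BMPC 1 member was called, against 35.3%, and from GCB to BMPC 2 members, both higher in BMPC, against 32%. The 1 member from nB to BMPC was Hist3h2ba (difference -1.46, SE 0.17, limma adjusted p = 6.82e-08), which was also called between KO and C in BMPC. These comparisons share KO libraries with each other, and members had been chosen for evenness in littermates of these mice, so the counts describe carry-over from C to KO. The middle 80% of members lay between -0.58 and 0.19 (log2) for GCB minus nB, -0.31 and 0.30 for BMPC minus nB, and -0.21 and 0.55 for BMPC minus GCB.

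**Figure D4:**
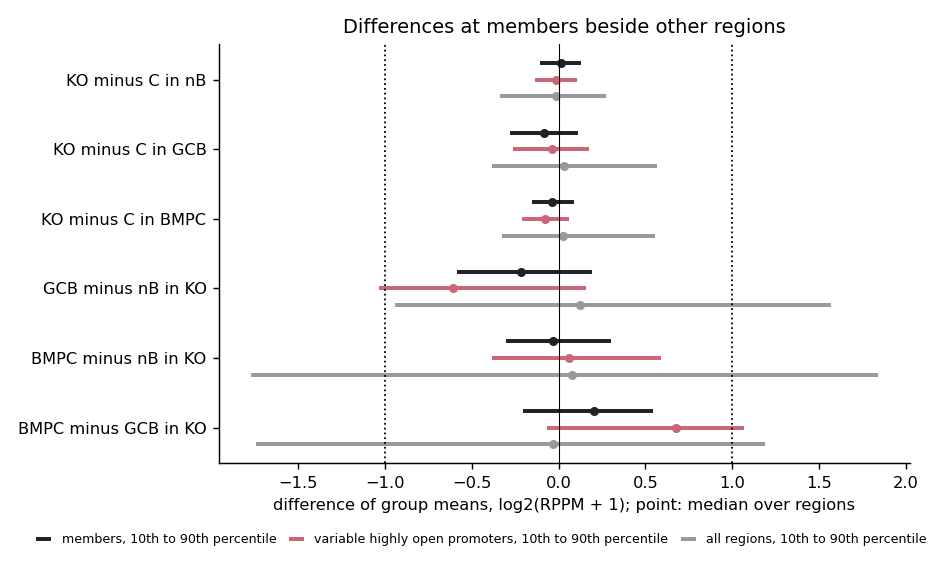
Differences of group means on log2(RPPM + 1), with the median (point) and the 10th to 90th percentile (bar) over members, variable highly open promoters and all regions, for 6 comparisons. Member bars stay inside the dotted 2-fold lines, and the GCB minus nB bar is centred at -0.22.

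The looser count showed many small differences. In the fit of all 6 groups it was 1982 members from nB to GCB, 1929 from GCB to BMPC and 698 from nB to BMPC. A limma fit of the compared groups only gave 1361, 1306 and 1389, so the excess in comparisons with GCB depended on the fit. From nB to GCB 248 members (5.73%) were higher and 1734 (40.0%) lower, against 28.1% and 21.5% of all regions, but after quantile normalization the split turned to 881 higher and 632 lower. The share of higher calls among them was 12.5% as deposited, 4.84% with TMM scaling, 23% without chrM regions and 58.2% after quantile normalization. The median member difference was -0.22, -0.32, -0.14 and 0.02 under these 4 scalings, where all regions had 0.12, 0.04, 0.19 and -0.07. Relative to the median of all regions, members were thus at -0.34, -0.36, -0.33 and 0.09, so the lower accessibility of members in GCB did not hold after quantile normalization.

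From GCB to BMPC 1642 members (37.9%) were higher and 287 (6.63%) lower, against 25.8% and 28.4% of all regions, with a share of higher calls of 85.1% as deposited, 90.2% with TMM scaling, 69.7% without chrM regions and 36.4% after quantile normalization. From nB to BMPC 307 members (7.09%) were higher and 391 (9.03%) lower, against 26.6% and 23.6%, and the share of higher calls was 44.0%, 23.9%, 39.7% and 46.3% in the same order. This total of 698 fell to between 270 and 431 without 1 of the KO nB or KO BMPC libraries. The quasi-likelihood test of edgeR gave 304 members higher and 941 lower, beside 20416 and 19851 of 66177 regions. The interval of the difference lay within 1.5-fold for 75.6% of members from nB to BMPC, 59.3% from nB to GCB and 62.0% from GCB to BMPC, beside 55.5%, 15.9% and 9.37% of variable highly open promoters. The median size of the difference was 0.27 and 0.26 in the comparisons with GCB against 0.16 from nB to BMPC, so the smaller shares went with larger differences. The median member SE was 0.12 in both comparisons with GCB and 0.14 from nB to BMPC. These SEs use 1 spread shared by all 6 groups. The median coefficient of variation was 11.8% in KO GCB, 4.83% in KO nB and 4.26% in KO BMPC. The SEs therefore cannot show whether differences with GCB were less precise.

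The 8 members called from nB to GCB in KO included genes of B cell positioning and survival. Tnfrsf13c (chr15:82054557-82055224), the receptor for the survival factor BAFF, had 44.1 and 36.8 RPPM in KO nB and 18.7, 15.9, 20.2 and 20.3 in KO GCB (difference -1.07, SE 0.16, limma adjusted p = 5.12e-06), with 40.0, 33.2 and 31.6 in C nB and 27.7 and 22.0 in C GCB. Its KO BMPC values were 24.4 and 21.5, above KO GCB and below nB. The call of Tnfrsf13c from nB to GCB was lost after quantile normalization, without chrM regions and with a pseudocount of 5 RPPM. It was also lost without KO nB replicate 1 or KO GCB replicate 2. S1pr1, the receptor that guides lymphocyte egress, had 39.5 and 39.8 in KO nB and 12.1, 22.9, 22.8 and 18.9 in KO GCB (difference -1.05, limma adjusted p = 5.61e-05), and its call was lost after quantile normalization, without chrM regions, with a pseudocount of 5 RPPM and without KO GCB replicate 1. Neither gene's KO nB and KO GCB libraries overlapped.

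Zbtb9 (chr17:27109576-27110572), a zinc finger protein of the BTB family, was called from nB to GCB and from GCB to BMPC. It had 49.8 and 57.3 RPPM in KO nB, 29.7, 25.5, 27.6 and 16.1 in KO GCB and 46.6 and 56.4 in KO BMPC, so that only GCB was low. The differences were -1.12 (SE 0.16, limma adjusted p = 2.76e-06) from nB to GCB and 1.06 (SE 0.16, limma adjusted p = 4.18e-06) from GCB to BMPC. Both calls were lost after quantile normalization and without KO GCB replicate 4. The second was also lost without chrM regions, with a pseudocount of 5 RPPM and without KO BMPC replicate 2.

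Pcbp2 (chr15:102300511-102301054), a poly(C) RNA-binding protein, and Rmnd5b (chr11:51451280-51451837), a subunit of a ubiquitin ligase, were narrow regions of 544 and 558 bp with the annotated start outside them. Pcbp2 had 37.2 and 38.4 RPPM in KO nB and 17.6, 12.1, 26.3 and 11.9 in KO GCB (difference -1.18, SE 0.22, adjusted p = 6.57e-05, by limma). Rmnd5b had 34.2 and 29.7 in KO nB and 8.81, 14, 17.5 and 18.2 in KO GCB (difference -1.12, SE 0.21, adjusted p = 6.29e-05, by limma). The lowest value of Rmnd5b was in KO GCB replicate 1, the shallowest library. The call of Rmnd5b was lost without that library and with a pseudocount of 5 RPPM. The call of Pcbp2 was kept under every alternative that tested it. The other 3 were Dexi (-1.04), the kinase Nuak2 (-1.03) and the kinase Gsk3a (-1.03), each no longer called after quantile normalization, without chrM regions or with a pseudocount of 5 RPPM. The call was also lost without KO GCB replicate 1 for Dexi, without KO nB replicate 1 or KO GCB replicate 1 and with either edgeR test for Nuak2, and without KO nB replicate 2 or KO GCB replicate 2 or 4 for Gsk3a.

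Il5ra (chr6:106699962-106700829), the interleukin 5 receptor chain, was the other member called from GCB to BMPC. It had 16.5, 26.1, 21.5 and 21.7 RPPM in KO GCB and 46.3 and 56.2 in KO BMPC (difference 1.23, SE 0.17, limma adjusted p = 6.46e-07), with 37.2 and 37.8 in KO nB. In C it had 21.6 and 28.1 in GCB and 35.6, 30.1 and 43.8 in BMPC. The BMPC values lay above the GCB values in both genotypes, and those of KO BMPC above all others. The KO minus C difference of Il5ra in BMPC was not among the calls.

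By function the members of most lists moved like the members as a whole. Over the 19 lists with at least 10 members, the median GCB minus nB difference in KO was below 0 for 19 lists as deposited, with TMM scaling and without chrM regions, and for 10 lists after quantile normalization. As deposited it ran from -0.45 for proteasome subunits to -0.14 for aminoacyl-tRNA synthetases, beside -0.22 for members of all genes. Among proteasome subunits 10 of 14 members were lower in GCB and 0 higher at an adjusted p of at most 0.05 (limma), beside 40.0% lower and 5.73% higher among all members and 21.5% and 28.1% among all regions, and their median stayed below 0 after quantile normalization (-0.18). Among aminoacyl-tRNA synthetases 7 of 19 were lower and 1 higher, and their median was 0.15 after quantile normalization. The 1 higher was Wars2, which charges mitochondrial tryptophan tRNA, with KO means of 66.6, 86.4 and 88.2 RPPM in nB, GCB and BMPC.

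From nB to BMPC the lists differed in how many members passed the looser limit, where 26.6% of all regions were higher and 23.6% lower. Aminoacyl-tRNA synthetases had 6 of 19 members higher and 0 lower, with medians of 0.14 as deposited, 0.08 with TMM scaling, 0.13 without chrM regions and 0.12 after quantile normalization, beside 303 higher and 382 lower among the 4236 members with a gene symbol. Mitochondrial import and dynamics had 3 of 13 higher and 0 lower, and oxidative phosphorylation 3 of 35 higher and 0 lower. Chromatin modifiers had 0 of 27 higher and 5 lower, among them Kat6b, a histone acetyltransferase, with KO means of 165 RPPM in nB and 138 in BMPC (difference -0.26, SE 0.11, limma adjusted p = 0.0456). Cytosolic ribosomal proteins had 0 of 24 higher and 2 lower.

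Histone genes had the lowest median of these lists in BMPC relative to nB. Of 20 histone members 10 were lower in BMPC than in nB and 0 higher (limma, adjusted p of at most 0.05), beside 9.03% lower among all members and 23.6% among all regions, and the median difference was -0.35 as deposited, -0.42 with TMM scaling, -0.37 without chrM regions and -0.35 after quantile normalization. The same list had 14 members lower and 0 higher from nB to GCB, beside 40.0% lower among all members and 21.5% among all regions, with a median of -0.42 as deposited and -0.18 after quantile normalization. Their summed level was 1602, 1618 and 1564 RPPM in C nB and 1606 and 1633 in KO nB, 1304 and 1317 in C GCB and 1138, 1282, 1217 and 1218 in KO GCB, then 1337, 1351 and 1386 in C BMPC and 1252 and 1281 in KO BMPC. Every nB library was above every GCB and BMPC library, and both KO BMPC libraries were below the 3 of C.

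Among them Hist1h2ac (chr13:23775338-23777499), a gene for histone H2A, had 166 and 178 RPPM in KO nB, 91.4, 98.7, 98.6 and 116 in KO GCB and 135 and 138 in KO BMPC. Its differences from nB were -0.76 in GCB (SE 0.09, limma adjusted p = 7.99e-08) and -0.33 in BMPC (SE 0.10, adjusted p = 0.00826). Hist1h4a, for histone H4, was at -0.52 and -0.57 (adjusted p = 4.29e-06 and 7.07e-06). Of the 20 members 15 lay in the histone cluster of chromosome 13, and as near-identical genes they may share reads. The promoter of Mki67, a gene of cycling cells, was also a member, and its KO values were 41.1 and 46.4 RPPM in nB, 48.5, 59.2, 49.98 and 53.8 in GCB and 50.2 and 50.8 in BMPC (GCB minus nB 0.26, limma adjusted p = 0.0681).

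Members were not evenly spread along the genome. Highly open promoters were divided into quintiles by the number of other highly open promoters within 1 Mb on either side, and 72.4%, 69.5%, 62.7%, 49.6% and 44.7% of them were members from the sparsest quintile (0 to 5 neighbours) to the densest (19 to 55). On chromosome 11, 35.7% of highly open promoters were members, on chromosomes 15, 17 and 19 46.3%, 48.2% and 50.2%, and on the other autosomes between 58.9% and 70.4%. Within those 4 chromosomes the share fell from 70.1% in the sparsest quintile to 31.2% in the densest, and on the other autosomes from 72.8% to 50.8%. These shares come from the rule itself and are a description.

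The KO libraries, which the rule did not use, showed the same gradient within the members. The median GCB minus nB difference in KO was -0.13, -0.16, -0.23, -0.28 and -0.35 from the sparsest to the densest quintile as deposited, and 0.10, 0.08, 0.02, -0.04 and -0.11 after quantile normalization, so its sign depended on the scaling while its order did not. For BMPC minus nB the 5 medians were -0.06, -0.01, -0.03, 0.00 and -0.03 and showed no such order. Members within the KO ratio limit made up 89.98% of the sparsest and 74.0% of the densest quintile.

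A single scaling factor per library cannot change the contrast between dense and sparse members of that library. Relative to the mean of KO nB, the median of the densest minus that of the sparsest quintile was -0.16 and -0.11 in the C GCB libraries, between -0.24 and -0.19 in the 4 KO GCB libraries, between -0.03 and 0.03 in the nB libraries and between 0.00 and 0.04 in the BMPC libraries. All 6 GCB libraries were below all 10 others. The C libraries had chosen the members, and the KO nB values lie around 0 because their mean is the reference. Only the KO GCB and KO BMPC libraries were free of both, and the latter had 0.01 and 0.04. Members of chromosome 11 were likewise 0.14 to 0.22 lower (log2) than other members in the GCB libraries. GCB libraries were also the shallowest and had the most chrM reads, and the part of these in the gradient was not tested.

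**Figure D5:**
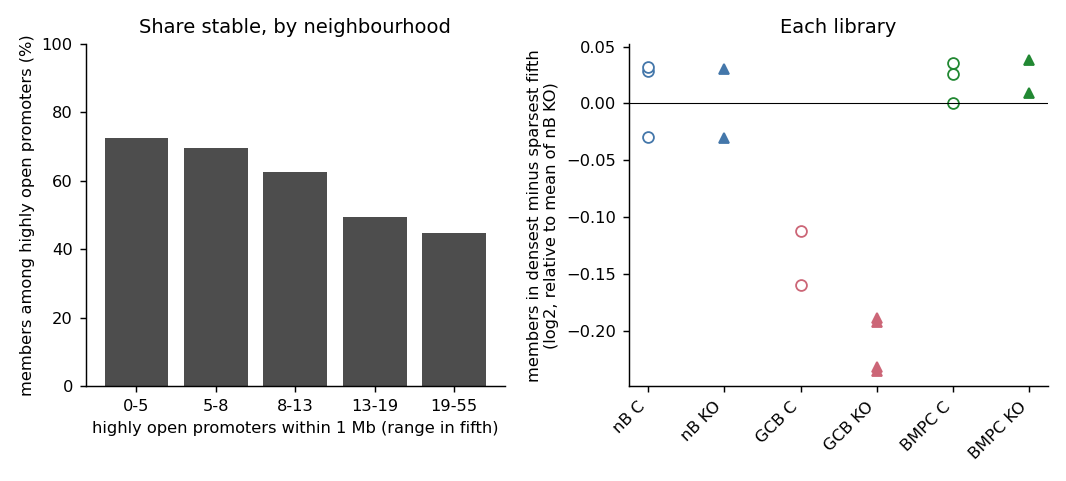
Left, share of highly open promoters that were members (%) by quintile of the number of highly open promoters within 1 Mb. Right, median log2 difference of members in the densest minus the sparsest quintile for each library, relative to the KO nB mean, where all 6 GCB libraries lie between -0.24 and -0.11 and the other libraries between -0.03 and 0.04.

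Members with a second start in the opposite direction were higher and more even than the others. Their median KO mean was 65.6 RPPM against 54.9 (53.7 against 47.3 RPPM per kb), and 88.1% against 83.5% were within the KO ratio limit. Island-like members had 49.0 RPPM per kb against 42.8 for the rest, with 84.4% and 82.4% within the limit. Members with the CCAAT box had 50.5 RPPM per kb against 46.2 without it, and 82.9% against 84.9% within the limit. The CCAAT box therefore went with a higher level but not with a more even one among members.

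At the limits of the rule, membership turned on small differences. T2 and Ntpcr, just inside the level limit, had least C means of 20.001 and 20.007 RPPM, and Agtrap (19.985) and Commd7 (19.939) were just outside. Aamdc (C ratio 1.49996) and Ccnc (1.49993) were just inside the ratio limit, and Asap1 (a largest mean of 87.0126 over a smallest of 58.0083) and Smc5 (1.50038) just outside. In KO, Ccnc (1.58) and Asap1 (1.53) lay past the ratio limit and Aamdc (1.34) and Smc5 (1.38) within it.

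Of the genes at the centre of the design, the Dnmt3b promoter was a member (chr2:153474905-153476249). It had 36.8, 37.7 and 37.97 RPPM in C nB and 34.5 and 37.98 in KO nB, with 25.1 and 28.1 in GCB of C against 35.2, 22.9, 25.0 and 19.6 in GCB of KO, and with 40.6, 40.5 and 35.7 in BMPC of C against 45.7 and 41.8 in BMPC of KO. The KO minus C differences were -0.05 (SE 0.17), -0.08 (SE 0.16) and 0.17 (SE 0.17) in nB, GCB and BMPC (limma adjusted p = 1, 0.892 and 0.945). The promoter lies outside the deleted part and so is no check of the deletion. Dnmt3a was not a member (least C mean 16.4 RPPM), nor was Dnmt1 (C ratio 2.02).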

How the data were processed

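The authors mapped ATAC-seq reads to mm9, called accessible regions per sample with MACS2, merged them over samples and deposited, per region, RPM values, here called RPPM: reads in the region per 1000000 reads in all accessible regions. The submitters' processing notes name Bowtie 1.1.1, Picard 1.127, MACS2 2.1.0.20140616 and edgeR 3.12.1. The deposited table also holds the authors' own fold changes and test values, which were not used. Of 17 labelled samples 16 had values, and the third KO BMPC sample was not analysed here. Every value was a whole number of reads (100% within 0.001 reads) once divided by the value of 1 read, so depth and recovered reads were known. Counting error is the only error that reads alone cover, and replicates were separate animals or pools.

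Group means were fitted with limma 3.58.1 (R 4.3.3) on log2(RPPM + 1), 6 groups, trended variance, Benjamini-Hochberg adjustment over 66177 regions, and differences are on that scale, which understates changes of low regions. edgeR 4.0.16 and DESeq2 1.42.0 on recovered reads, other pseudocounts (0.1 and 5 RPPM), a filter at a mean of 1 RPPM, TMM, quantile and chrM-free scaling, and leaving out each library were alternatives. The fitting steps were tested on simulated data. Sequence was read from mm9 and gene starts from its annotation. Tables and figures were made with Python 3.11.15, pandas 2.3.3, numpy 2.4.6 and matplotlib 3.10.9.

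Members and lists were chosen with earlier results of these data known. Named members were the 6 with the highest KO mean, the 6 with the smallest KO ratio, up to 4 called per direction in each comparison (or the 3 largest changes at an adjusted p of at most 0.05 where none was called), those of each list with the highest KO mean, the nearest on each side of the limits, and the Dnmt3a, Dnmt3b and Dnmt1 promoters. An item of the rule is not reported here. Irf4, Mki67, S1pr1, Dexi, Nuak2, Gsk3a, Hist1h4a and Ccdc64 fell outside this rule.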

Additional observations from a re-analysis of the deposited data

Results flagged for a closer look

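In 3 of 88 sets of library values tested, each of the 4 KO GCB libraries, 1 library stood apart from the others by a gap above Dixon's 95% critical value, where chance gives about 1 in 20. Only KO GCB had 4 or more libraries, so no other group was tested. Dhrsx was at 237 RPPM in replicate 1, the shallowest library, and at 275 to 279 in the other 3. Uba6, the second ubiquitin-activating enzyme, was at 76.0 RPPM in replicate 1 and at 95.8 to 96.5 in the others. Eif4a1, a translation initiation helicase, was at 97.8 RPPM in replicate 3 and at 69.4 to 73.4 in the others.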

How the results depend on the processing

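The number of members was 4331, between 4058 and 4348 when 1 C library was left out of the rule, and 2541 with a ratio limit of 1.3, while the members within both limits in KO numbered 3603, 3385 to 3594 without 1 library, and 1712 with a ratio limit of 1.3. From nB to GCB in KO the count of 8 called members became 2 with a pseudocount of 5 RPPM, 25 with TMM scaling and with either edgeR test, 33 with DESeq2, 3 without chrM regions, 1982 at an adjusted p of at most 0.05 with no limit on fold (below, the looser limit), and 7 to 16 when 1 library was left out (16 without KO GCB replicate 3), and after quantile normalization it stayed at 8 but with 5 higher and 3 lower in place of 0 and 8. From GCB to BMPC the count of 2 became 6 with a pseudocount of 0.1 RPPM and with TMM scaling, 1 with a pseudocount of 5 RPPM, 8 after quantile normalization (1 higher and 7 lower, in place of 2 and 0), 5 with either edgeR test, 9 with DESeq2, 1929 at the looser limit, and 2 to 10 when 1 library was left out (6, 7, 10 and 4 without KO GCB replicates 1, 2, 3 and 4, and 10 without KO BMPC replicate 1). From nB to BMPC it went from 1 to 698 at the looser limit and was 2 to 3 without KO nB replicate 1 or 2 or KO BMPC replicate 1 or 2. Between KO and C in BMPC the 1 call became 0 with a pseudocount of 5 RPPM, after quantile normalization, and without C BMPC replicate 2 or KO BMPC replicate 1 or 2 (0 to 1 over the libraries left out), and 2 at the looser limit. In GCB the count of 0 became 3 at the looser limit, and the interaction of BMPC against nB went from 0 to 1 with either edgeR test and with DESeq2. An alternative chosen after seeing the data left out chromosomes 11, 15, 17 and 19, which gave 4 calls from nB to GCB, 0 from nB to BMPC, 1 from GCB to BMPC and 0 between KO and C in BMPC. By construction the stricter ratio, the looser limit (both p and fold) and the missing chromosomes change the regions counted, and for the others the cause was not tested. The other 133 summary counts stayed within 1.5 times of the value in the report, which says nothing of direction, and of 176 values of single named members 129 kept their call, 47 lost it and 0 changed sign.

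A pool called F2 and a pool called M1 were each present among C and among KO GCB. Deviations of same-named pools correlated by 0.048 and 0.087. With 2 C GCB libraries the deviations of 1 mirror those of the other, so these values cannot show whether same-named pools share more than a name. With the pool as a replicate block 1 member was called between KO and C in GCB (Pcbp2, -1.10, limma adjusted p = 0.00346) instead of 0. At the looser limit 196 members were called (10 higher and 186 lower) instead of 3, beside 1927 of 66177 regions (1078 higher and 849 lower). The KO pools without a C pool of the same name had terms of their own. In this fit only pools F2 and M1 therefore compared KO with C. Depth was lowest in KO GCB, with a median of 75 reads per member and library.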

Other observations

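The promoter of Irf4, which encodes a transcription factor needed for plasma cells, was itself a member and was chosen for mention after its values were seen. It had 56.9 and 59.8 RPPM in KO nB, 39.6, 48.4, 36.4 and 39.2 in KO GCB and 38.9 and 39.9 in KO BMPC, and 55.1, 61.2 and 55.8 in C nB, 39.6 and 42.6 in C GCB and 41.7, 46.9 and 43.8 in C BMPC. All nB values lay above all GCB and BMPC values (KO GCB minus nB -0.51, SE 0.12, limma adjusted p = 0.00104, and KO BMPC minus nB -0.55, SE 0.14, adjusted p = 0.00162), and both differences were under the 2-fold limit.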
